A study of Mus musculus with 6 samples.

Results

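The Bcl2 family decides at the mitochondrial outer membrane whether a cell enters the intrinsic pathway of apoptosis. Here it was followed in mouse hearts in which a human SRY transgene had or had not been activated. Members were the probes of a whole-genome expression array whose gene symbol was Bcl2, Bcl2l1, Mcl1, Bax, Bak1, Bcl2l11, Bad, Bid, Bbc3 or Bnip3. These were 10 of the 18138 gene symbols on the array, and they had 19 of its 25697 probes.

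The arrays held heart RNA of male FVB mice (FVB/N in the methods) at postnatal day 6 (P6), from 3 hSRY-ON and 3 hSRY-OFF animals. The hSRY transgene (Signalox-hSRY) was inserted as a single copy at the H11 locus under the CAG promoter, which is active in most cell types, and stayed silent until Cre recombined it. In hSRY-ON mice the recombination took place in the single-cell embryo, by Cre that the mother had placed in the oocyte from a Ddx4-Cre transgene, and hSRY-ON mice without the Ddx4-Cre transgene were chosen for the arrays. The methods use the name hSRY-OFF for mice that carry the transgene unrecombined, and also describe control littermates that lack it, so which of these genotypes the 3 hSRY-OFF hearts had is not settled by the labels. The array carries mouse probes, and the transgene itself was not measured.

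Members of the family share short Bcl2 homology (BH) domains and fall into 3 functional groups. Bcl2, Bcl2l1 (Bcl-xL) and Mcl1 are anti-apoptotic guardians, which hold the effectors Bax and Bak1 in check. The effectors, once released, assemble pores in the outer membrane and let cytochrome c escape. The BH3-only proteins Bcl2l11 (Bim), Bad, Bid, Bbc3 (Puma) and the related Bnip3 sense stress and either occupy the guardians or activate the effectors. In heart muscle, which hardly renews its cells, the family is known for its part in ischaemic injury and in the removal of mitochondria around birth. In humans, SRY is the testis-determining transcription factor of the Y chromosome, and it binds DNA through a high mobility group box that it shares with the SOX proteins.

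Because SRY binds DNA, the promoters of the members with the largest changes are shown first, with that of Bbc3, which held matches to both motifs searched for a named factor. Each line gives the 250 bases before an annotated transcription start in the RefSeq annotation of GRCm38.p6, read 5′ to 3′ in the direction of the gene, and capitals mark matches to the SRY and SOX core and to the FoxO core, while GC boxes are left in lower case. The motifs searched, on both strands, were the SRY and SOX core AACAAT (reverse complement ATTGTT), the FoxO core GTAAACA (reverse complement TGTTTAC) and the GC box GGGCGG (reverse complement CCGCCC). FoxO factors are known regulators of Bcl2l11 and Bbc3, and the GC box is bound by Sp1.
Bcl2l11, first start, chr2:128125788-128126037, + strand: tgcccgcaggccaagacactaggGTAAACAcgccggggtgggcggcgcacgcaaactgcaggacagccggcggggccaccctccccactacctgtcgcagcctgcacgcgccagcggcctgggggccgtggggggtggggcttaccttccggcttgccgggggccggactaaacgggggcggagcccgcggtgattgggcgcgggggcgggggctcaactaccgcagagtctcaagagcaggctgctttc
Bcl2l11, second start, chr2:128127325-128127574, + strand: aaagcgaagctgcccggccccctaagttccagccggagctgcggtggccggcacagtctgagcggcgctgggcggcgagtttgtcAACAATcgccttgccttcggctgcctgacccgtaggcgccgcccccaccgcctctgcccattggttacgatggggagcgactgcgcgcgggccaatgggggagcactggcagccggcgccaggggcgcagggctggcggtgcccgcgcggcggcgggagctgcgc
Bbc3, second start, chr7:16310011-16310260, + strand: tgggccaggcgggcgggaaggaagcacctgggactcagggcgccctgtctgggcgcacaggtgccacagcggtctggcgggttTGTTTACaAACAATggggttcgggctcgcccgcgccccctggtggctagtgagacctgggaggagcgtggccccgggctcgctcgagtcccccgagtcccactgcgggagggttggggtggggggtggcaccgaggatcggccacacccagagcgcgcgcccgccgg
Bak1, chr17:27028628-27028877, - strand: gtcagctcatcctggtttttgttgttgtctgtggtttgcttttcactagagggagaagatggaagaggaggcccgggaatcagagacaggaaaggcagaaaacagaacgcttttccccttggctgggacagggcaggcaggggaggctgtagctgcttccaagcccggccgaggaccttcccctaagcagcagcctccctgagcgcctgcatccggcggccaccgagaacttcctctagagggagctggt
Bcl2l1, first start, chr2:152831729-152831978, - strand: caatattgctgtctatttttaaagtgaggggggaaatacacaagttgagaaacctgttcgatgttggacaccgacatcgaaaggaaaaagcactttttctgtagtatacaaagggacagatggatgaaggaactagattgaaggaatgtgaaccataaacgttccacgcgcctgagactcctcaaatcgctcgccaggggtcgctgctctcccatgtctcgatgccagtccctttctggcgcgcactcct

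All 10 members had at least 1 such window, 16 windows in all. The AACAAT core lay in 2 of them, 165 bases before the second Bcl2l11 start and 159 bases before the second Bbc3 start. The FoxO core also lay in 2, 227 bases before the first Bcl2l11 start and 167 bases before the second Bbc3 start. In the Bbc3 window the 2 motifs stood close together without sharing a base. Among 32851 windows of the same length over all genes, 9.42% held AACAAT, 3.17% held GTAAACA and 32.7% held the GC box, which lay in 11 of the 16 member windows. A match describes letters in a window and no binding was measured, and a window without a match says nothing about the factor.

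Of the 19 member probes, 13 were above background on all 6 arrays and 16 were on at least 3, which made them testable. Values are log2 intensities after background correction and quantile normalization, and a difference is hSRY-ON minus hSRY-OFF on that scale, tested with limma and adjusted by the Benjamini-Hochberg method over all 12970 tested probes. A probe was called at an adjusted p under 0.05. By this rule 6 member probes were called, 3 higher and 3 lower in hSRY-ON, beside 27.5% of all tested probes (13.8% higher and 13.7% lower). Of the 3 lower, the dimmest tested Bcl2l11 probe was above background in hSRY-OFF hearts only and was testable only through them. The 6 probes belonged to 3 genes, Bcl2l1 and Bak1, which rose, and Bcl2l11, which fell. At an unadjusted p under 0.05 there were 10 member probes. In 8 member probes the 3 hSRY-ON hearts did not overlap with the 3 hSRY-OFF hearts, 4 of them higher and 4 lower in hSRY-ON, beside 45.2% of all tested probes (23.6% higher and 21.6% lower). The 4 lower include the same dimmest Bcl2l11 probe, which entered this count too only through the hSRY-OFF hearts. The counts of called and of separated member probes are therefore near what the array as a whole showed. Intensities of different probes cannot be compared as amounts of RNA, so levels are set side by side only within a probe, and probes of 1 gene read the same hearts and are not replicates.

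**Figure D1:**
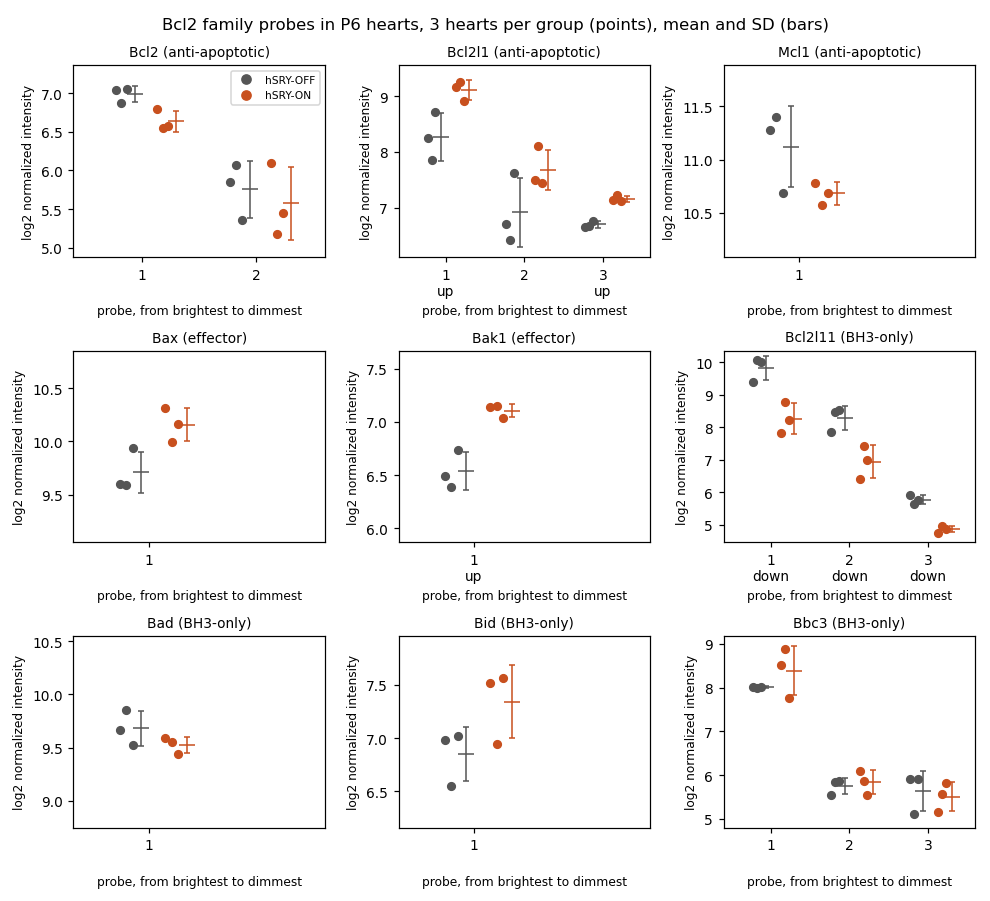
Normalized log2 intensity (vertical axis) of the tested probes of the 9 testable members in each heart. Points are hearts, bars are the group mean and SD (n = 3), and probes of a gene run from brightest to dimmest. The hSRY-ON hearts lie below the hSRY-OFF hearts in all 3 Bcl2l11 probes (the dimmest not above background in hSRY-ON hearts) and above them in the Bak1 and Bax probes, while the Mcl1, Bad, Bid and Bbc3 hearts overlap.

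The anti-apoptotic members did not move together. Bcl2l1 rose 1.79-fold by its brightest probe, Bcl2 and Mcl1 had negative differences that did not pass the test, and the median over the 3 genes was -0.35 while their mean was 0.02. Over all 9660 tested genes, each given by its brightest probe, the median was 0.00 and 28.8% were called.

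Bcl2l1 encodes Bcl-xL, the guardian that also spares red blood cell precursors and neurons from death. Its brightest probe (ILMN_2698430) read 8.24, 7.86 and 8.72 in the hSRY-OFF hearts and 9.17, 9.25 and 8.91 in the hSRY-ON hearts. Every hSRY-ON heart lay above every hSRY-OFF heart, although the closest pair was 0.19 apart. The difference was 0.84 (SE 0.22, 95% interval 0.32 to 1.35, limma adjusted p = 0.0281). The dimmest Bcl2l1 probe (ILMN_2742557) stood between 6.66 and 6.77 in hSRY-OFF hearts and, higher, between 7.12 and 7.22 in hSRY-ON hearts, again without overlap, with a difference of 0.46 (SE 0.11, limma adjusted p = 0.0197). On the remaining probe (ILMN_2647885) the hSRY-OFF heart of replicate 3, at 7.62, exceeded hSRY-ON hearts at 7.44 and 7.49, and the difference of 0.76 (SE 0.32) did not pass the test (limma adjusted p = 0.118). The 3 probes thus had the same sign, and 2 of them were called. The brightest probe lost its call without hSRY-OFF replicate 1 (0.83, limma adjusted p = 0.0822), hSRY-OFF replicate 2 (0.63, 0.0688), hSRY-ON replicate 1 (0.81, 0.0798) or hSRY-ON replicate 2 (0.76, 0.0823), and ILMN_2742557 lost its call without the same 4 hearts (0.42 to 0.47). Both probes also lost their calls without normalization between arrays and with a replicate block. ILMN_2742557 further lost its call without background correction (0.22, limma adjusted p = 0.0526) and with an intensity trend (0.46, 0.0568). In contrast, ILMN_2647885 passed without hSRY-OFF replicate 3 (1.12, limma adjusted p = 0.0162).

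Bcl2 is the founding member of the family and guards both the mitochondrion and the endoplasmic reticulum. Its brighter probe read 7.03, 6.87 and 7.06 in hSRY-OFF and 6.79, 6.55 and 6.57 in hSRY-ON hearts. The groups did not overlap, with the hSRY-ON hearts lower, but the difference of -0.35 (SE 0.13, 95% interval -0.65 to -0.06) did not pass the test over all probes (limma adjusted p = 0.0782). The dimmer Bcl2 probe was above background on 4 of the 6 arrays and gave -0.18 (SE 0.27, limma adjusted p = 0.662).

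Mcl1 is a short-lived guardian whose loss in adult heart muscle is known to cause heart failure in mice. Its single probe read 11.28, 11.40 and 10.69 in hSRY-OFF and 10.78, 10.57 and 10.69 in hSRY-ON hearts. The hSRY-OFF heart of replicate 3 fell among the hSRY-ON hearts and the other two lay above them. The difference was -0.44 (SE 0.20, 95% interval -0.89 to 0.01, limma adjusted p = 0.134). That heart decided the outcome: without it the difference was -0.65 and passed the test (limma adjusted p = 0.0143). Its array was also the dimmest of the 6, its probes averaging 631 in intensity where the other arrays averaged 723 to 939, and the part of this in the result was not tested.

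Both effectors had higher values in hSRY-ON hearts. Bak1, which resides in the outer mitochondrial membrane, read 6.49, 6.39 and 6.73 in hSRY-OFF and 7.14, 7.15 and 7.04 in hSRY-ON hearts. The hSRY-ON hearts lay close together and all above the hSRY-OFF hearts. Bak1 rose by 0.57 (SE 0.13, 95% interval 0.26 to 0.87, limma adjusted p = 0.0164), which is 1.48-fold. The call was lost without hSRY-OFF replicate 1 (0.54, limma adjusted p = 0.0668), hSRY-OFF replicate 2 (0.49, 0.0574) or hSRY-ON replicate 1 (0.56, 0.0558).

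Bax, which moves from the cytosol to mitochondria when activated, read 9.60, 9.60 and 9.94 in hSRY-OFF and 10.31, 9.996 and 10.17 in hSRY-ON hearts. The groups did not overlap, with a gap of 0.06 between the highest hSRY-OFF and the lowest hSRY-ON heart. The difference of 0.45 (SE 0.15, 95% interval 0.10 to 0.79), or 1.36-fold, narrowly missed the threshold (limma adjusted p = 0.0595). It passed under 6 of 16 alternative settings, among them without hSRY-OFF replicate 3 (0.56, limma adjusted p = 0.0297). The effectors' median difference was 0.51.

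The BH3-only group held the largest change of the family and otherwise little that passed the test. Bcl2l11 fell to 34.0% of its hSRY-OFF level by its brightest probe. Bad, Bid and Bbc3 were not called, and Bnip3 could not be tested. The median over the 4 tested BH3-only genes was 0.12 and their mean was -0.21, so that the sign of the group depends on how Bcl2l11 is weighed.

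Bcl2l11 encodes Bim, which binds every anti-apoptotic member and can activate Bax directly. Its brightest probe (ILMN_3157568) read 9.40, 10.05 and 10.01 in hSRY-OFF hearts and 7.81, 8.77 and 8.21 in hSRY-ON hearts. The groups stood far apart, and the spread within each (SD 0.36 and 0.48) was small beside the difference. The difference was -1.56 (SE 0.27, 95% interval -2.20 to -0.92, limma adjusted p = 0.00562), and 129 of the 9660 tested genes had a lower value. A further probe (ILMN_2590638) read 7.87, 8.46 and 8.53 in hSRY-OFF and 6.41, 7.44 and 6.996 in hSRY-ON hearts and fell by 1.34 (SE 0.28, limma adjusted p = 0.0117). In both probes the heart of replicate 1 was the lowest of its group. The dimmest tested probe (ILMN_1229255) was above background on all hSRY-OFF arrays, at 5.65 to 5.91, and on no hSRY-ON array, at 4.76 to 4.95. It passed the filter only through the hSRY-OFF hearts, so its test (fitted difference -0.91, limma adjusted p = 0.00203) adds no support. As a bound, it was at least 1.37-fold higher in hSRY-OFF hearts. The bound sets the hSRY-OFF mean against the lowest signal that counted as above background on each hSRY-ON array. The fourth Bcl2l11 probe was not above background on any array. The brightest probe and ILMN_2590638 kept their calls under every alternative, with the brightest between -1.81 and -1.22 and its limma adjusted p at most 0.0233. ILMN_1229255 also kept its call where it could be computed, but as it was testable only through the hSRY-OFF hearts, this adds no support. An exact two-sided permutation test of 3 against 3 hearts cannot give a p below 0.1, and it gave 0.1 for the brightest probe.

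Bad, a BH3-only protein that growth factor signalling switches off by phosphorylation, read 9.67, 9.86 and 9.52 in hSRY-OFF and 9.59, 9.55 and 9.44 in hSRY-ON hearts. The groups overlapped and the difference was -0.15 (SE 0.13, 95% interval -0.46 to 0.15, limma adjusted p = 0.418). Bid links death receptors to mitochondria after cleavage by caspase-8, and its testable probe read 6.98, 6.55 and 7.02 in hSRY-OFF and 7.52, 6.94 and 7.57 in hSRY-ON hearts. The hSRY-ON heart of replicate 2 fell among the hSRY-OFF hearts. The difference of 0.49 (SE 0.21, 95% interval 0.01 to 0.98) did not pass (limma adjusted p = 0.12), and without that heart it did (0.69, limma adjusted p = 0.0374). The other Bid probe was above background on 2 arrays and was not tested.

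Bbc3 encodes Puma, a p53 target that binds all guardians. Its brightest probe read 8.02, 7.98 and 8.02 in hSRY-OFF and 8.52, 8.88 and 7.77 in hSRY-ON hearts. The hSRY-OFF hearts were nearly equal, while the hSRY-ON hearts of replicates 1 and 2 lay above them and that of replicate 3 below. The difference was 0.38 (SE 0.26, 95% interval -0.22 to 0.99, limma adjusted p = 0.310), and without hSRY-ON replicate 3 it was 0.69 and passed (limma adjusted p = 0.0225). The other Bbc3 probes gave -0.13 (limma adjusted p = 0.745) and 0.09 (0.736), so the probes of the gene did not share a sign. Bnip3, a hypoxia-induced receptor for mitophagy, had 1 probe, which was not well above background in any heart (4.38 to 4.59), so nothing can be said of its level.

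**Figure D2:**
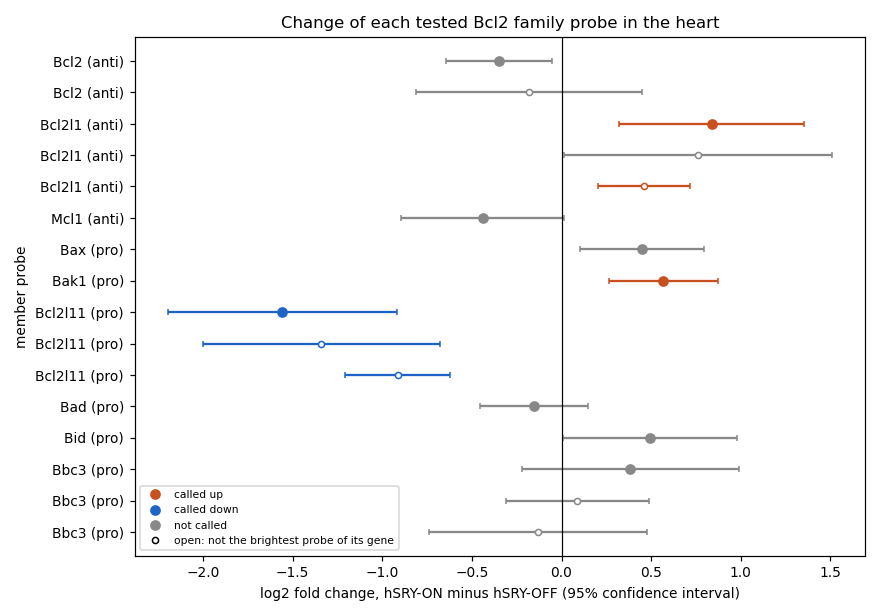
Difference in log2 intensity, hSRY-ON minus hSRY-OFF (horizontal axis), for the 16 tested member probes, with 95% intervals from limma a filled symbol for the brightest probe of each gene and colours for called probes (the dimmest Bcl2l11 probe, not above background in hSRY-ON hearts, is drawn at its fitted value). Bcl2l11 lies lowest at -1.56 and the brightest Bcl2l1 probe highest at 0.84, and most other intervals lie within 1 log2 unit of 0.

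Set against each other, pro- and anti-apoptotic members did not part by their means, while their medians had opposite signs. Over the 6 tested pro-apoptotic genes, 1 rose (Bak1), 1 fell (Bcl2l11) and 4 were not called, with a median difference of 0.42 and a mean of 0.03. Of all tested genes, 14.9% rose and 13.9% fell. Over the 3 anti-apoptotic genes, 1 rose (Bcl2l1) and 2 were not called, with a median of -0.35 and a mean of 0.02. These medians and means were not tested. For each heart, the mean over the pro-apoptotic members minus the mean over the anti-apoptotic members was taken after centring each probe on its hSRY-OFF mean. This value was -0.13, 0.06 and 0.07 in hSRY-OFF hearts and -0.08, 0.12 and 0.00 in hSRY-ON hearts. The groups overlapped, with means of 0.00 ± 0.11 and 0.01 ± 0.10 (SD, n = 3). The value describes these hearts and was not tested, and it weighs all members alike although their proteins do not act alike.

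The same comparison made pair by pair depended on the guardian. Of the 18 pairs of a pro- and an anti-apoptotic member, 10 separated the groups, beside 48.5% of all pairs of tested genes, so the number of separated pairs is near that of the array as a whole. Measured against Bcl2, the hSRY-ON hearts lay above the hSRY-OFF hearts for Bax (0.80), Bak1 (0.92), Bid (0.84) and Bbc3 (0.73) and below them for Bcl2l11 (-1.21), while Bad (0.20) overlapped. For Bax minus Bcl2, a pair often read as a ratio, the hSRY-OFF hearts stood at -0.15, 0.00 and 0.15 and the hSRY-ON hearts at 0.79, 0.73 and 0.87. Measured against Bcl2l1, no pair had the hSRY-ON hearts above, and Bcl2l11 (-2.40) and Bad (-0.99) had them below. For Bcl2l11 minus Bcl2l1 the hSRY-OFF hearts stood at -0.39, 0.65 and -0.26 and the hSRY-ON hearts at -2.91, -2.03 and -2.25. Against Mcl1, Bax (0.89), Bak1 (1.01) and Bid (0.93) had the hSRY-ON hearts above, and the other 3 pairs overlapped. Bax thus stood higher in hSRY-ON hearts relative to Bcl2 and to Mcl1, while relative to Bcl2l1 its difference was -0.39 with overlapping hearts. Pairs that share a member share its values, and these differences compare changes, not amounts.

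**Figure D3:**
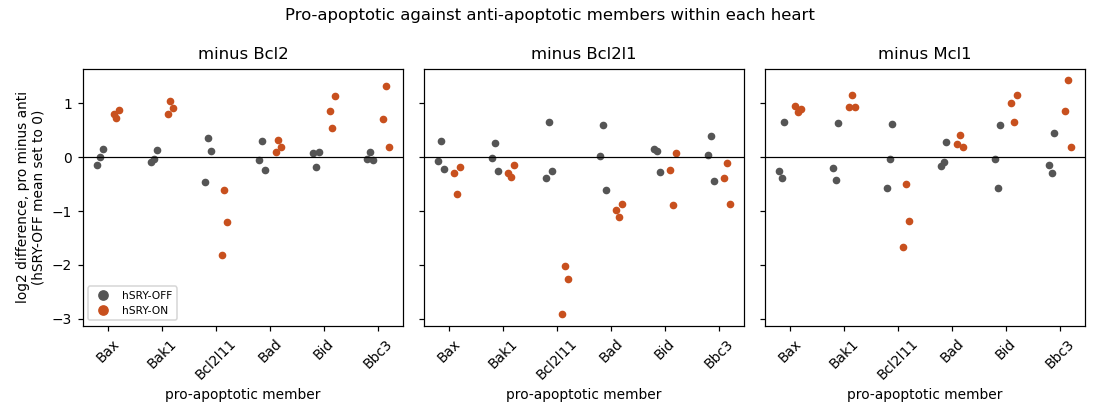
Log2 difference between a pro-apoptotic and an anti-apoptotic member in each heart (vertical axis), with the hSRY-OFF mean of each pair set to 0. Points are hearts, and the panels show the guardians Bcl2, Bcl2l1 and Mcl1. The Bcl2l11 points of hSRY-ON hearts lie below 0 against each guardian, whereas those of Bax and Bak1 lie above 0 against Bcl2 and Mcl1 and under 0, overlapping the hSRY-OFF hearts, against Bcl2l1.

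Among relatives of the family outside the 10 members, 15 were on the array, 9 could be tested, and 2 rose and 1 fell (median -0.11). The share called was 33.3%, beside 28.8% of all tested genes. Bmf, a BH3-only protein tethered to the cytoskeleton, read 6.88, 7.15 and 7.13 in hSRY-OFF and 8.34, 9.30 and 8.02 in hSRY-ON hearts, and rose 2.83-fold (1.5 on the log2 scale, SE 0.30, limma adjusted p = 0.0099). Its groups did not overlap, and its direction was opposite to that of Bcl2l11, the other BH3-only gene called. Bok, an effector-like member, read 9.13, 9.28 and 8.63 in hSRY-OFF and 9.99, 9.75 and 10.05 in hSRY-ON hearts, without overlap. It rose by 0.92 (SE 0.19, limma adjusted p = 0.0103), and its other tested probe gave 0.90 (limma adjusted p = 0.0251). Bcl2l13, a mitochondrial protein that takes part in mitophagy, fell from 9.83, 9.95 and 9.59 to 9.25, 9.37 and 9.27 (-0.49, SE 0.13, limma adjusted p = 0.0312). Bmf and Bok kept their calls under all 16 alternatives, while Bcl2l13 lost its call under 8, including the omission of any heart but hSRY-OFF replicate 3 (-0.53 to -0.41). The relatives that were not called were the guardian Bcl2l2 (0.15), Bik (-0.39), Bcl2l12 (-0.39), Bnipl (-0.41), Bnip3l (-0.11) and Bnip2 (-0.03). Pmaip1 (Noxa), Hrk, Bcl2l10, Bcl2l14, Bcl2a1c and Bcl2a1d were too close to background to be tested.

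Downstream of the effectors, cytochrome c joins Apaf1 and caspase-9 to form the apoptosome. Of 10 tested genes of this step and of the caspases and their inhibitors, none rose and 2 fell (20% called, median -0.13), beside 28.8% of all tested genes called. Cycs, somatic cytochrome c, which also carries electrons in respiration, read 8.30, 8.36 and 7.92 in hSRY-OFF and 6.81, 6.75 and 6.95 in hSRY-ON hearts. It fell by 1.36 (SE 0.15, limma adjusted p = 0.000916), with a further probe at -1.19 (limma adjusted p = 0.0301). Aifm1, a flavoprotein of the intermembrane space, fell by 1.09 (SE 0.12, limma adjusted p = 0.000966). Both kept their calls under all 16 alternatives. Apaf1 (0.22), Casp9 (0.17) and the inhibitor antagonist Diablo (0.04) were not called. Both genes that fell also serve oxidative phosphorylation.

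The pores open in the outer membrane. A separate list held channels, fusion proteins and other proteins of the outer or inner mitochondrial membrane or acting at them. Of 11 tested genes, none rose and 5 fell (45.5% called), beside 28.8% of all tested genes called, with a median of -0.44. Mfn1, which fuses outer membranes, read 12.06, 12.10 and 12.06 in hSRY-OFF and 10.95, 11.20 and 11.10 in hSRY-ON hearts and fell by 0.99 (SE 0.12, limma adjusted p = 0.0012). Ppif (cyclophilin D, -0.94), Mfn2 (-0.79), the channel Vdac1 (-0.51) and the inner-membrane fusion protein Opa1 (-0.44) also fell, with a further Opa1 probe at -0.20 that did not pass (limma adjusted p = 0.413). The call of Opa1 was lost without any one heart (-0.51 to -0.35) and that of Vdac1 without hSRY-OFF replicate 1 (-0.47, limma adjusted p = 0.0631).

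Upstream, the pathways known to set BH3-only expression gave mixed counts. Of 13 tested p53 targets and regulators, 4 rose and 1 fell (38.5% called), beside 28.8% of all tested genes called, with a median of 0.45. Fas, the death receptor, rose by 0.89 (SE 0.24, limma adjusted p = 0.0284), from 8.07, 8.21 and 8.28 to 9.27, 9.46 and 8.52, and its other tested probe gave 0.64 without passing (limma adjusted p = 0.158). Cdkn1a, the p21 cell cycle inhibitor, rose by 0.68, Mdm2, the ubiquitin ligase of p53, by 0.60, and Trp53inp1 by 0.55. The other tested probes of Cdkn1a (0.45 and 0.83) and Mdm2 (0.39) had the same sign and were not called. Sesn1 was not called by its brightest probe (0.81, limma adjusted p = 0.176), although its other tested probe was (1.285, limma adjusted p = 0.0479). Ccng1, another p53 target, fell by 0.60 (SE 0.12, limma adjusted p = 0.0088), and Trp53 itself was not called (-0.34). The calls of Mdm2 and Ccng1 held without any one heart, whereas those of Fas (0.70 to 0.91), Cdkn1a (0.54 to 0.71) and Trp53inp1 (0.37 to 0.63) were each lost when replicate 1 or 2 of either group was left out, and that of Trp53inp1 also without hSRY-OFF replicate 3 (0.57).

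Fas was also the only one of 6 tested death receptor genes that passed (16.7% called, median 0.05), beside 28.8% of all tested genes called. Casp8, which cleaves Bid, was not called (-0.37). In the list of FoxO and Akt signalling, 1 of 10 tested genes rose and 1 fell (20% called, median 0.12). Ppp3ca, a catalytic subunit of calcineurin, which dephosphorylates Bad, rose by 0.54 by its brightest probe (SE 0.16, limma adjusted p = 0.0393), while its other tested probe gave 0.07 (limma adjusted p = 0.843). Akt2, a kinase that phosphorylates Bad and FoxO factors, was above background on all hSRY-OFF arrays and on no hSRY-ON array. As a bound, it was at least 1.28-fold higher in hSRY-OFF hearts. It passed the filter only through those hearts, so its call (fitted difference -0.70, limma adjusted p = 0.0153) adds no support. The call of Ppp3ca was lost without any heart but hSRY-OFF replicate 3 (0.40 to 0.54), and that of Akt2 without hSRY-OFF replicate 1 (-0.61, limma adjusted p = 0.0636) or hSRY-ON replicate 1 (-0.66, 0.0545). Akt2 also lost it without background correction (-0.20, limma adjusted p = 0.0858) and without normalization between arrays (-0.81, 0.0505). Foxo1, a driver of Bcl2l11 transcription in other cells, was not called (0.06).

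Bnip3 and Bnip3l belong to the hypoxia response, in which 4 of 15 tested genes rose and 2 fell (40% called, median -0.13), beside 28.8% of all tested genes called. Slc2a1, the glucose transporter GLUT1, rose by 1.27 (SE 0.28, limma adjusted p = 0.0129) and Vegfa, the vascular growth factor, fell by 1.24 (SE 0.25, limma adjusted p = 0.0097), while the other tested Vegfa probe gave -0.44 without passing (limma adjusted p = 0.113). The probes of Slc2a1 and Vegfa that were called kept their calls under all 16 alternatives, but the 6 called genes of the list were 3 without hSRY-OFF replicate 1 and 3 without hSRY-OFF replicate 2, when Adm, Ddit4 and Aldoa lost their calls. Of 12 tested mitophagy genes, 1 rose and 1 fell (16.7% called, median -0.06): the cargo receptor Sqstm1 (0.55, SE 0.14, limma adjusted p = 0.0264) and the autophagosome protein Map1lc3a (-0.49, SE 0.13, limma adjusted p = 0.0289), whose other tested probe gave -0.23 without passing (limma adjusted p = 0.308). Sqstm1 lost its call without replicate 1 of hSRY-OFF or replicate 2 of either group (0.43 to 0.56), and Map1lc3a without replicate 1 of either group, replicate 2 of hSRY-OFF or replicate 3 of hSRY-ON (-0.53 to -0.42). Over the 8 lists together, 83 tested genes held 12 that rose and 13 that fell, Akt2 among them, beside 14.9% and 13.9% of all tested genes.

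**Figure D4:**
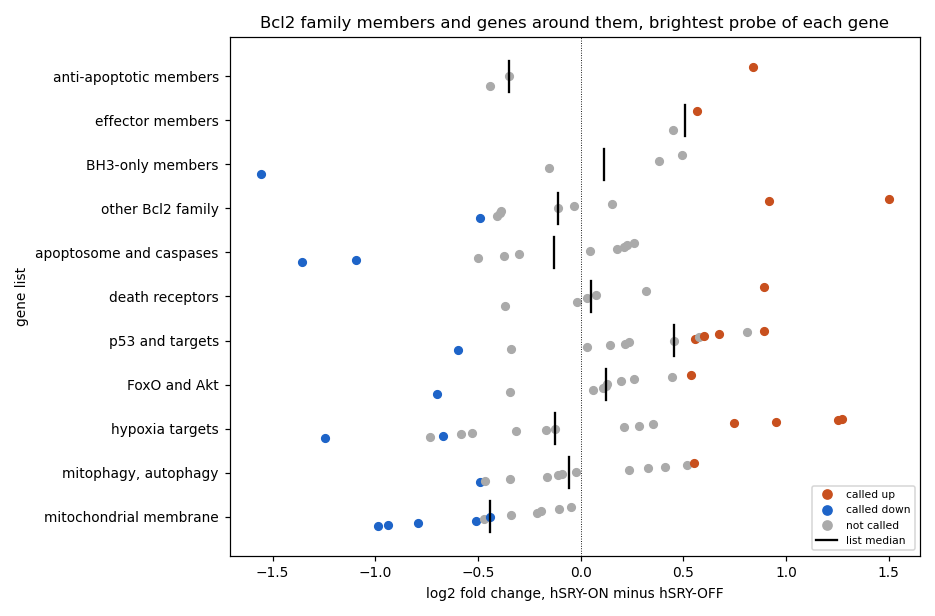
Difference in log2 intensity, hSRY-ON minus hSRY-OFF (horizontal axis), of each tested gene by its brightest probe, for the 3 groups of Bcl2 family members and 8 lists of related genes (vertical axis). Points are genes, coloured by whether they were called up, called down or not called, and black lines are medians. The medians run from -0.44 for the mitochondrial membrane list to 0.51 for the effectors.

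The genes whose values ran most closely with the 2 extreme members were taken over the 6 arrays. For Bcl2l1 they were Eml5 (Pearson r = 0.999), Cd3eap (0.997) and Dnajb6 (0.996), and 10 genes exceeded 0.99. For Bcl2l11 they were the water channel Aqp1 (r = 0.997), the mitochondrial tRNA synthetase Fars2 (0.994) and the heart isoform of phosphofructokinase-2, Pfkfb2 (0.994), and 6 genes exceeded 0.99. Aqp1, Fars2 and Pfkfb2 had differences of -0.68, -0.77 and -0.79. These correlations describe 6 arrays that fall into 2 groups and were picked as the highest among all tested genes.

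The hearts were read as whole tissue, in which fewer cells of a type and less RNA per cell cannot be told apart. Cardiomyocyte markers were present, 7 of 8 on all arrays, and 4 of the 8 (Myh6, Tnni3, Pln and Ryr2) fell. Actc1 (-0.20), Myl2 (-0.02), Myl3 (-0.03) and Nppa (0.14) were not called, and Nppa was higher in every hSRY-ON heart. The summed intensity of the 8 markers ranged from 170400 to 182800 with the transgene off and from 164400 to 171600 with it on. Of 7 macrophage markers, Cd68, Cd14 and Lyz2 rose. Csf1r (0.40), Lyzs (0.31) and Emr1 (-0.21) overlapped between the groups and were not called, and Ptprc was above background on no array. The sum of this list, to which the bright Lyz2 probe gives most, ranged from 2097 to 3117 with the transgene off and from 4999 to 5407 with it on. Of 5 smooth muscle markers, Acta2 rose (0.53), Myh11 (-0.42), Rgs5 (-0.57) and Pdgfrb (-0.43) were not called, and Cnn1 was above background on no array. Their sum, to which the bright Acta2 probe gives most, ranged from 27080 to 32560 with the transgene off and from 39560 to 42870 with it on. Endothelial sums overlapped between the groups (10730 to 11600 off, 10650 to 11940 on), with Cdh5 (-0.72) and Tek (-0.45) lower, Emcn (0.53) higher and Kdr above background on no array. Fibroblast sums overlapped as well, and 1 of 6 markers was called, higher (Tcf21, 0.76). Pdgfra (0.41), Col1a2 (0.10), Col1a1 (0.05), Dcn (-0.30) and Col3a1 (-0.60) were not called, and Dcn was lower in every hSRY-ON heart. The 5 brown fat markers were split. Ucp1 (3.67) and Adipoq (1.48) rose, while Cidea (-1.05) was lower in every hSRY-ON heart without passing (limma adjusted p = 0.0691). Fabp4 was above background in 2 hSRY-OFF hearts and in no hSRY-ON heart, and Plin on no array. The sum of the list ranged from 1925 to 2643 off and from 1070 to 3526 on. Ucp1 was above background in 1 hSRY-OFF heart, that of replicate 3 at 8.88, and in every hSRY-ON heart, one of them lower at 8.80. Of 6 erythroid markers, Hbb-b1 (-1.29) and Hbb-b2 (-1.20) fell, with sums of 51120 to 63600 off and 51700 to 56620 on. The part of these markers in the differences of Bcl2l1, Bak1, Bcl2l11 and Fas was not tested. Across all probes, arrays correlated at 0.983 to 0.992 within hSRY-OFF, 0.985 to 0.988 within hSRY-ON and 0.940 to 0.960 between the groups, and 47.2% to 51.3% of the probes were detected on each.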

How the data were processed

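Total RNA of 3 hSRY-ON and 3 hSRY-OFF hearts, described as biological triplicates, was hybridised to MouseRef-8 v2.0 BeadChips, and groups were taken from the sample labels. The authors deposited for each probe the mean bead intensity, not normalized, and a detection p-value against the negative-control beads. The methods name TCC for normalization and testing and the submitters' processing notes name limma; which program made the bead summaries is not given in the sources used here. Other organs were not analysed here.

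Intensities were corrected by the normal-exponential model with controls inferred from the detection p-values, given an offset of 16, quantile normalized and put on the log2 scale (neqc in limma 3.58.1, R 4.3.3). Plots used matplotlib 3.10.9 under Python 3.11.15. Tests were limited to probes with detection p-values below 0.05 on 3 or more of the 6 arrays. Of 25697 probes, 12970 passed, and limma's lmFit and eBayes, with group as the only term, called 3567, of which 50.1% were higher in hSRY-ON (1897 and 38.5% without normalization between arrays). P-values are two-sided and measure the spread between these 6 hearts, and the number of arrays limits the precision. A gene was summarised by its brightest probe, that with the highest mean over the arrays, kept the same in every alternative that tested it. A bound sets the brighter group's mean against the higher of the probe's own value and the lowest probe above background. The steps were tested on simulated data.

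The members, the lists and the tests were chosen with earlier results of these data known. All members were named by all probes, with, from each list, the called genes of largest rise and fall, all tested relatives of the family, and the 3 genes most correlated with Bcl2l1 and Bcl2l11. Other genes of the lists were named after their values were seen. Xiap and Kdm3a were matched by the array's older symbols Birc4 and Jmjd1a. Promoters came from RefSeq, GRCm38.p6, with 10 of 10 members matched. Alternatives covered background correction, scaling between arrays (including one in the manner of TCC), the probe filter, an intensity trend, a replicate block, the mean over a gene's probes and the omission of each heart.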

Additional observations from a re-analysis of the deposited data

How the results depend on the processing

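Bcl2l11 kept its call and direction under all alternatives by its brightest probe and by ILMN_2590638. Among comparisons of a member probe with its main value, 215 kept direction and side of the threshold, 18 lost the call, 11 gained it and 7 changed sign. Without normalization between arrays, which shifted the median of all probes to -0.12, 1897 probes were called against 3567, 13 genes of the pathway lists against 25, 0 anti-apoptotic members against 1 and 1 pro-apoptotic member against 2, the anti-apoptotic median was -0.47 against -0.35, Bak1 lost its call (0.44, limma adjusted p = 0.397) and so did Bcl2l1 (0.72, 0.0978). Without background correction that median was -0.16. The cause was not tested. Leaving out each heart gave 2239 to 3714 called probes, 12 to 26 called pathway genes (12 without hSRY-OFF replicate 1, 14 without hSRY-OFF replicate 2 and 15 without hSRY-ON replicate 1), 0 to 2 anti-apoptotic and 1 to 3 pro-apoptotic members called. All changes of sign were in dim probes that were not called. Bbc3 probe ILMN_2690620 gave -0.0272 without normalization and -0.0392 to 0.23 without 1 heart, Bbc3 probe ILMN_2690621 -0.39 to 0.0501, and the dimmer Bcl2 probe -0.44 to 0.0187. The difference between pro- and anti-apoptotic members per heart lay between -0.06 and 0.06 over all alternatives, so its sign carries no information.

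Deviations of same-numbered hearts over all probes correlated at -0.02, 0.04 and -0.07. With 3 hearts per group this cannot settle whether replicate numbers pair the hearts, and the labels do not say. With the replicate block, 2842 probes were called, anti-apoptotic members called went from 1 to 0 (Bcl2l1, limma adjusted p = 0.0666) and Bid passed (0.49, limma adjusted p = 0.0448). Each group held 3 arrays, and a difference that missed the threshold does not show that the groups were alike. Members near background, Bnip3 above all, cannot be judged at this signal.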
